A study of Mus musculus with 27 samples.

Results

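Chromatin open in NMuMG cells before TGF-β treatment or 8 h into it, without a 24 h peak, made up 654 of 34453 regions. The 34453 regions came from merging the 3 ATAC-seq peak lists (0, 8 and 24 h) wherever peaks touched or overlapped. The 654 were chosen by the presence of peaks in these lists: each held a 0 h peak, an 8 h peak or both and no 24 h peak. A 0 h peak alone was present in 369 regions (0 h only), an 8 h peak alone in 241 (8 h only) and a peak at both times in 44 (0 h and 8 h). The main reference was the 12919 regions with a 0 h or 8 h peak that also held a 24 h peak, called kept regions here. Another 20880 regions had a 24 h peak only. NMuMG is an epithelial line from normal mouse mammary gland, and cells were untreated (0 h) or received TGF-β at 1 to 5 ng/ml for 8 or 24 h. ATAC-seq was done on 1 library per time. Lamin B1 ChIP-seq was also done on 1 library per time, each a mix of parallel immunoprecipitations, from chromatin sheared lightly so that mainly open chromatin entered sequencing. RNA-seq had 2 libraries per time for parental cells and 2 per time for cells infected with a lentivirus carrying an irrelevant control shRNA. Cells with a lamin B1 shRNA were in the same table. They entered the estimate of spread, the choice of genes tested, normalization across the table and correlations between libraries, but no comparison of times. Hi-C was not analysed here. The labels do not say that the 2 libraries of a group came from separate cultures, although the study's methods call them biological replicates. P-values therefore measure the spread between these libraries, which may be technical. Of 8 epithelial markers, 6 were at 1 FPKM (fragments per kilobase, corrected for library size) or more in each of the 6 parental libraries, with Krt8 at 2020 to 2600 FPKM. Epcam (0.171 to 1.17 FPKM) and Cldn4 (0.0923 to 9.19 FPKM) were not. Of 6 fibroblast markers 4 passed that level, with Col1a1 at up to 8.57 FPKM, and of 4 leukocyte and 4 endothelial markers 1 and 0 did. Replicate libraries correlated at 0.99 to 0.994 in parental cells and 0.983 to 0.993 in shRNA cells (Pearson, log2 scale, across genes).

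ATAC-seq marks DNA that the Tn5 transposase can reach, which in most cells means promoters of active genes, enhancers and sites of architectural proteins such as CTCF. TGF-β drives epithelial cells through an epithelial-to-mesenchymal transition, in which SMAD proteins, AP-1 and repressors such as ZEB and SNAI act on enhancers and promoters, junction genes are turned down, and matrix and adhesion genes are turned up.

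The central 300 bp of 7 of these regions are printed here because they carry the points made later: the strongest regions without an annotated exon in each group, the strongest one with a CTCF match, and the one inside Cdh1. Sequences are the + strand of mm9 (NCBIM37), 5′ to 3′, and capitals mark matches to a motif on either strand. The motifs are AP-1 (TGANTCA), SMAD (CAGACA), RUNX (TGTGGTTT), FOXA (TGTTTAC), GRHL (AACCNGTT), KLF4 and KLF5 (GGGTGTGGC) and TEAD (GGAATG), with a 12-letter CTCF core. A match is a description of the letters and not evidence of binding.
0 h only, between genes, chr15:102649134-102649433 (AP-1, SMAD): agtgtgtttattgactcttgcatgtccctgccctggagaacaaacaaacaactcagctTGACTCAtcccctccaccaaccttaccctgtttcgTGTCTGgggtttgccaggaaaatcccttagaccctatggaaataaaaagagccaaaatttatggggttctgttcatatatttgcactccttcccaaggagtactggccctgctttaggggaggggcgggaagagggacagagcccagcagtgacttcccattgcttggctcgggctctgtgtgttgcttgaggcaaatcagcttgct
8 h only, Plxna2 intron, chr1:196504015-196504314 (SMAD, SMAD, RUNX): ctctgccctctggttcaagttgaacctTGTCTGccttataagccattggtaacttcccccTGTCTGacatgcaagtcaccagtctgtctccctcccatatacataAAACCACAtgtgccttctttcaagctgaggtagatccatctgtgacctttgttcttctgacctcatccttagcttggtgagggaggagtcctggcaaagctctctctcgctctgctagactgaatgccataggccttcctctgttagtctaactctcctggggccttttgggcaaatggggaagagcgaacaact
8 h only, between genes, chr1:145395780-145396079 (SMAD, FOXA): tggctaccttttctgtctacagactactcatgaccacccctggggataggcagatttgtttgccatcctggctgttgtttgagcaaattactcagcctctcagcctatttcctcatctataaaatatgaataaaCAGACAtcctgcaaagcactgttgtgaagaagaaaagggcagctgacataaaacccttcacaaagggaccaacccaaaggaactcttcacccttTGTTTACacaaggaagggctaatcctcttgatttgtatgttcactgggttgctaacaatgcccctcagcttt
0 h and 8 h, Mid1 intron, chrX:166435419-166435718 (SMAD): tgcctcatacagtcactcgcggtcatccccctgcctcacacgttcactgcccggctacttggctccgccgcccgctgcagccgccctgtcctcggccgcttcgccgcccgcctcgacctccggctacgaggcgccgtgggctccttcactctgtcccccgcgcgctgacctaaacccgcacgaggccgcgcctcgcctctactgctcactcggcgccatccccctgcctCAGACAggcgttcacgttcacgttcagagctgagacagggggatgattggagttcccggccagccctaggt
0 h and 8 h, between genes, chr17:73144927-73145226 (GRHL, KLF4 and KLF5): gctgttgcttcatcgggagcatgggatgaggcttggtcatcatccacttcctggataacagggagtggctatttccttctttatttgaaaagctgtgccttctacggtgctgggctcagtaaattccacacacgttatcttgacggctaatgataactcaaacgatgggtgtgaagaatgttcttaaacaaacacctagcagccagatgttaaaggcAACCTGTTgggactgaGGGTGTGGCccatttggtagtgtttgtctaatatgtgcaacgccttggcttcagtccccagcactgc
0 h and 8 h, upstream of Muc5b, chr7:149021912-149022211 (RUNX, CTCF): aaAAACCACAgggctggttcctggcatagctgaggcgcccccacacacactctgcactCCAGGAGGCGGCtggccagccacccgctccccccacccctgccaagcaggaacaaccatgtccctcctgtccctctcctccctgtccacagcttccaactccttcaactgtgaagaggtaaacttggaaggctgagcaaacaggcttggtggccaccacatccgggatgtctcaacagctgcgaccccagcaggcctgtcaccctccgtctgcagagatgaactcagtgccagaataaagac
8 h only, Cdh1 intron, chr8:109135861-109136160 (SMAD, TEAD, FOXA): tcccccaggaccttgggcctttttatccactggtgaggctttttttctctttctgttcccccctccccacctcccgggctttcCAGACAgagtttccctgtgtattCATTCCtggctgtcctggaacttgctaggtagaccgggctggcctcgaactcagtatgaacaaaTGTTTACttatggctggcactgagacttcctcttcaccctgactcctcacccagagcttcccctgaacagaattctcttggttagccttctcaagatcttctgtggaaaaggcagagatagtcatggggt

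These regions were few and weak beside the rest. The peak lists held 9782 peaks at 0 h, 10340 at 8 h and 33811 at 24 h, covering 10.0, 8.41 and 40.1 Mb. The median MACS score, the peak caller's measure of strength with 50 as its lowest value here, was 93.1, 73.9 and 155 in the 3 lists. Of the 9746 regions with a 0 h peak 413 (4.24%, 95% Wilson interval 3.86 to 4.66%) had no 24 h peak, and of the 10284 with an 8 h peak 285 (2.77%, 2.47 to 3.11%) had none. Because the rule used the peak lists, the presence, score and width of peaks are a description. The intervals cover counting error only, each time rests on 1 library, and the files give no read depth. Lists cut to equal length, the 9782 highest-scoring peaks of each, gave 5163 regions without a 24 h peak in place of 654, since a 24 h peak then needed a score of 259. Of the 654, 612 were still in that larger set. This overlap was nearly fixed in advance, since the cut removed no 0 h peak and could only take 24 h peaks away. At 8 h it removed only peaks with scores under 52.25.

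The share without a 24 h peak fell with the score of the early peak. For 0 h peaks it was 13.8% (201 of 1453) at scores of 50 to 60, 6.05% at 60 to 80, 2.92% at 80 to 100, 0.824% at 100 to 150 and 0.222% (4 of 1801) above. For 8 h peaks it was 6.92% (168 of 2426), 2.71%, 0.735%, 0.161% and 0.3% (1 of 333). In the lowest class, 0 h peaks were thus without a 24 h peak more often than 8 h peaks, with intervals of 12.2 to 15.7% and 5.98 to 8.0%. The median score was 59.7 (50.05 to 171.14) in the 0 h only regions and 56.5 (50.01 to 105.6) in the 8 h only regions. The 44 regions open at both times had medians of 71.6 at 0 h and 69.0 at 8 h. A score of at least 100 was reached by 17, 1 and 9 regions of the 3 groups. Their median widths were 640, 513 and 880 bp, against 1464 bp for kept regions.

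**Figure D1:**
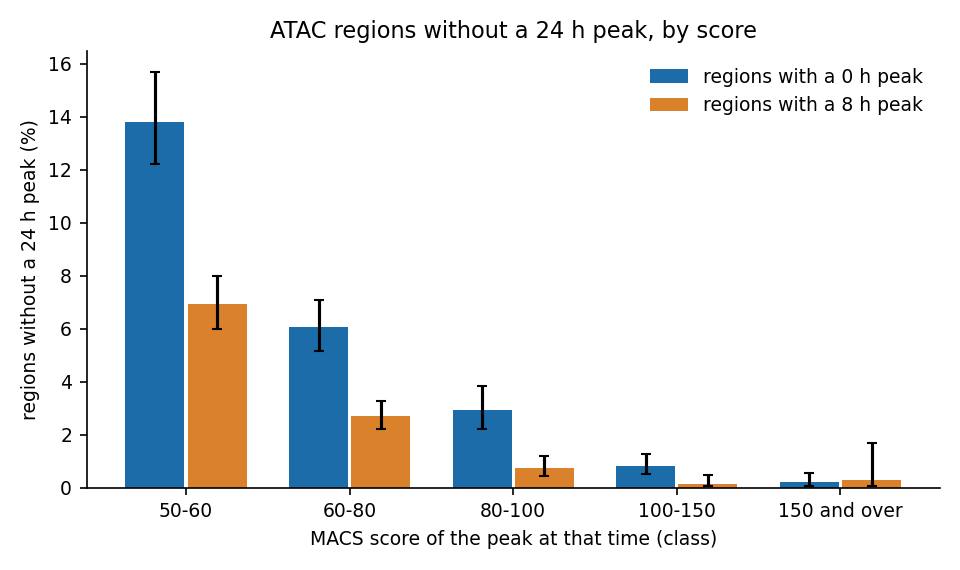
Share of merged ATAC regions without a 24 h peak (y axis, percent) by class of the MACS score of the 0 h or 8 h peak (x axis), with 95% Wilson intervals as error bars. The share falls from 13.8% to 0.222% for 0 h peaks and from 6.92% to 0.3% for 8 h peaks.

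The nearest 24 h peak lay a median of 13288 bp from a 0 h only region, 20478 bp from an 8 h only region and 15416 bp from a region open at both times. A 24 h peak lay within 1000 bp of 48 of the 654 (7.34%) and within 10000 bp of 259 (39.6%). None lay within 100000 bp of 40 of the 8 h only regions (16.6%) and of 25 of the 0 h only regions (6.78%). At the edge of the rule, the nearest regions counted as absent were 1, 12, 20, 32 and 41 bp from a 24 h peak. The kept regions nearest to that edge shared only 18, 19, 113, 121 and 123 bp with a 24 h peak, of scores 96.64, 105.4, 65.27, 65.94 and 69.56.

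Most of these regions lay away from promoters. Within 500 bp of the transcription start site (TSS) of an annotated gene were 38 of the 0 h only regions (10.3%), 5 of the 8 h only regions (2.07%) and 5 of those open at both times (11.4%), against 51.9% of kept regions and 13.7% of regions open at 24 h only. Introns held 29.5, 38.2 and 38.6% of the 3 groups, and 43.9, 47.3 and 36.4% lay between genes, against 22.7% of kept regions. Seen from the other side, 0.71% (48 of 6756) of early regions at a TSS had no 24 h peak, while 9.47% of those in introns and 9.06% of those between genes had none. The share was 11% (44 of 401) at 500 to 2500 bp from a TSS, just outside the promoter. Among early peaks with scores of 50 to 60 alone, 11.1% of 0 h only regions were at a TSS against 46.7% of the regions with 0 h and 24 h peaks but no 8 h peak. For 8 h only regions the share was 2.52%, against 19.4% of the regions with 8 h and 24 h peaks but no 0 h peak. By chromosome, 3.38 to 6.28% of early regions were without a 24 h peak.

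**Figure D2:**
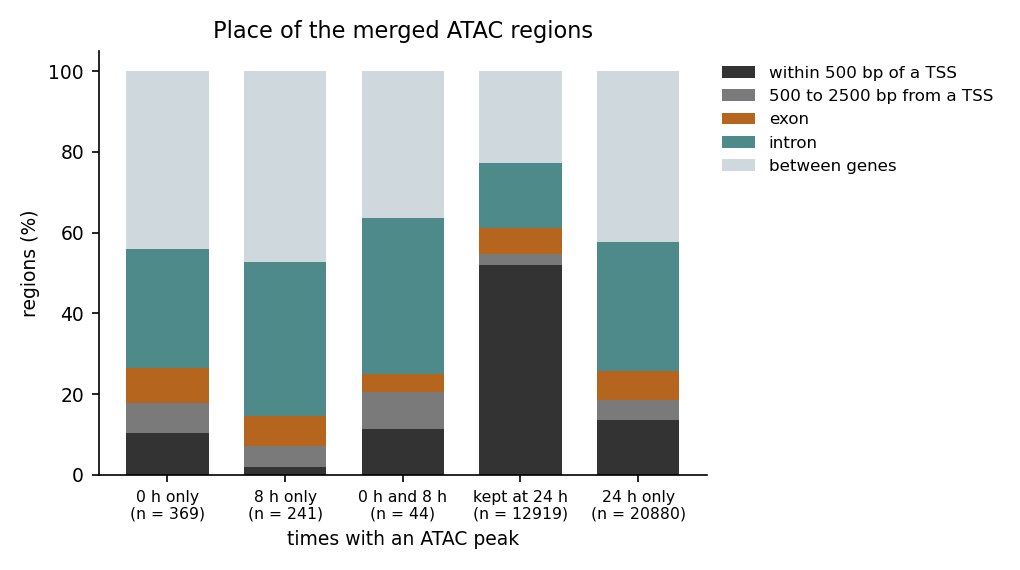
Place of merged ATAC regions (y axis, percent of regions) for each group by times with a peak (x axis, with the number of regions). The 3 groups without a 24 h peak have 2.07 to 11.4% of regions within 500 bp of a TSS, and the kept regions 51.9%.

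The regions held less G and C than kept regions. A CpG-rich centre, as at CpG island promoters, was present in 8.13% of 0 h only regions, 0.415% of 8 h only regions (1 of 241) and 6.82% of those open at both times, against 45.8% of kept regions. Of regions open at 24 h only, 10.5% had such a centre. The mean G and C content was 48.3% ± 7.27 (SD over 369 regions), 46.4% ± 6.04 (241) and 48.3% ± 6.91 (44), against 52.3% ± 7.73 in kept regions and 47.0% in regions open at 24 h only. Motifs of CpG island promoters were rare. In the central 300 bp the NRF1 motif (10 letters) was in 0.542, 0 and 0% of the 3 groups against 5.16% of kept regions, and the ETS motif (CCGGAAGT) in 1.08, 0.415 and 0% against 4.19%. The YY1 motif (11 letters) was in none of the 654 (95% Wilson upper limit 0.584%) and in 0.999% of kept regions. These contrasts go with place, since kept regions lay at a TSS more often. Over 2500 bp from a TSS, NRF1, ETS and YY1 motifs were in only 0.769, 0.752 and 0.0512% of kept regions. Of regions open at 24 h only, 0.886, 1.27 and 0.249% held them at any place. Over 2500 bp from a TSS those shares were 0.182, 0.505 and 0.00587%.

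Among enhancer motifs, AP-1 was rarer in 0 h only than in 8 h only regions, and away from promoters rarer in each than in regions with the same early peak and a 24 h peak. AP-1 is the FOS and JUN factor family that opens enhancers in many cell types. Over the whole region, its motif was in 34.4% of 0 h only, 46.5% of 8 h only and 36.4% of regions open at both times, against 52.6% of kept regions, which are wider. In the central 300 bp the shares were 20.9, 38.6 and 25%, against 27.0% of kept regions and 40.9% of all regions. Restricted to regions more than 2500 bp from a TSS, they were 23.4% (19.0 to 28.5%) for 0 h only and 38.4% (32.3 to 44.9%) for 8 h only. The distal regions that did hold a 24 h peak had the motif more often: 40.9% of those with 0 h and 24 h peaks, 59.7% (57.9 to 61.5%) of those with 8 h and 24 h peaks, and 56.7% of those open at 24 h only. Distal regions without a 24 h peak thus held AP-1 letters less often than distal regions of the same early time with one, with intervals that did not overlap. The distal shares were not split by score, and the score classes take regions at any place. At scores of 50 to 60, AP-1 was in 21.1% of 0 h only and 27.9% of 0 h and 24 h regions. At 60 to 100 the 0 h only interval included the other share, with 21.6% (16.0 to 28.6%) against 19.7%. For 8 h only the shares were 37.7% and 39.5% (29.6 to 50.4%), against 47.9 and 49.5% of 8 h and 24 h regions.

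CTCF, the zinc finger protein that anchors chromatin loops, was more frequent in the centre of the regions than in that of kept regions. Its motif lay in the central 300 bp of 6.5% of 0 h only (4.41 to 9.5%), 4.98% of 8 h only (2.87 to 8.5%) and 11.4% (5 of 44) of regions open at both times, against 2.22% (1.98 to 2.49%) of kept regions and 2.55% of all regions. Away from promoters the shares were 7.26, 4.46 and 8.57%, against 2.82% of distal regions with 0 h and 24 h peaks and 1.28% of those with 8 h and 24 h peaks. At scores of 50 to 60 they were 8.42 and 5.66% for 0 h only and 8 h only, against 2.25% of kept regions. At scores of 60 to 100 they were 4.94% (2.52 to 9.44%) and 3.7% (1.27 to 10.3%), against 2.31%. There the 8 h only interval included the kept share. The 0 h only interval included the 2.83% of regions with 0 h and 24 h peaks. Regions open at both times had 12.5% (4 of 32) in that class. Over the whole width the difference from kept regions was not seen, with 13, 7.47 and 13.6% against 11.9%. The strongest region with a match, upstream of the mucin gene Muc5b and printed earlier, had scores of 120.92 at 0 h and 66.63 at 8 h.

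SMAD letters, those of the proteins that carry the TGF-β signal to DNA, were in the central 300 bp of 23.0% of 0 h only, 37.3% of 8 h only and 27.3% of regions open at both times, against 22.1% of kept regions and 27.9% of all regions. Away from promoters, 36.6% (30.6 to 43.1%) of 8 h only regions had them, close to the 36.8% of distal regions with 8 h and 24 h peaks. The E-box bound by ZEB and SNAI repressors (CAGGTG) was in 26.0, 20.7 and 13.6%, against 17.4% of kept regions and 16.6% of all regions. Away from promoters it was in 25.1% (20.5 to 30.3%) of 0 h only regions against 17.3% (15.2 to 19.6%) of those with 0 h and 24 h peaks. At scores of 50 to 60, at any place, the 0 h only share was 28.9% (23.0 to 35.8%) against 17.4%. At 60 to 100 it was 21.6%, with an interval (16.0 to 28.6%) that included the 18.1% of those with 0 h and 24 h peaks. For 8 h only regions the distal share was 20.5%, with an interval (15.8 to 26.3%) that included the 16.9% of those with 8 h and 24 h peaks. Distal regions open at both times had it in 5.71% (2 of 35). FOXA letters were in 8.67, 10.4 and 13.6% against 4.39% of kept and 4.77% of all regions. Away from promoters, however, the interval for 0 h only (8.91%, 6.2 to 12.7%) included the 7.55% of its kept counterpart. That for 8 h only (10.7%, 7.31 to 15.4%) just included the 7.33% of its own. The TEAD motif, whose factors work with YAP and TAZ, was in 19.8, 17.4 and 18.2% against 15.0% of kept and 19.1% of all regions. Away from promoters this excess over kept regions was not seen. There TEAD was in 21.1% (16.9 to 26.1%) of 0 h only regions against 20.5% of those with 0 h and 24 h peaks. In distal 8 h only regions it was less frequent, 16.1% (11.8 to 21.4%) against 22.6% of those with 8 h and 24 h peaks. The GRHL motif, of a family of epithelial factors, was in 2.98, 3.73 and 2.27% against 1.52% of kept and 1.81% of all regions. Over the whole region, where kept regions are wider, the order against them turned for most of these motifs. There the E-box was in 46.3, 32.8 and 40.9% of the 3 groups against 65.2% of kept regions, and SMAD letters in 48.5, 52.7 and 70.5% against 70.0%. FOXA letters were in 13.8, 15.8 and 27.3% against 19.1%, the TEAD motif in 36.9, 34.9 and 34.1% against 55.2%, and the GRHL motif in 5.69, 6.64 and 2.27% against 10.6%.

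**Figure D3:**
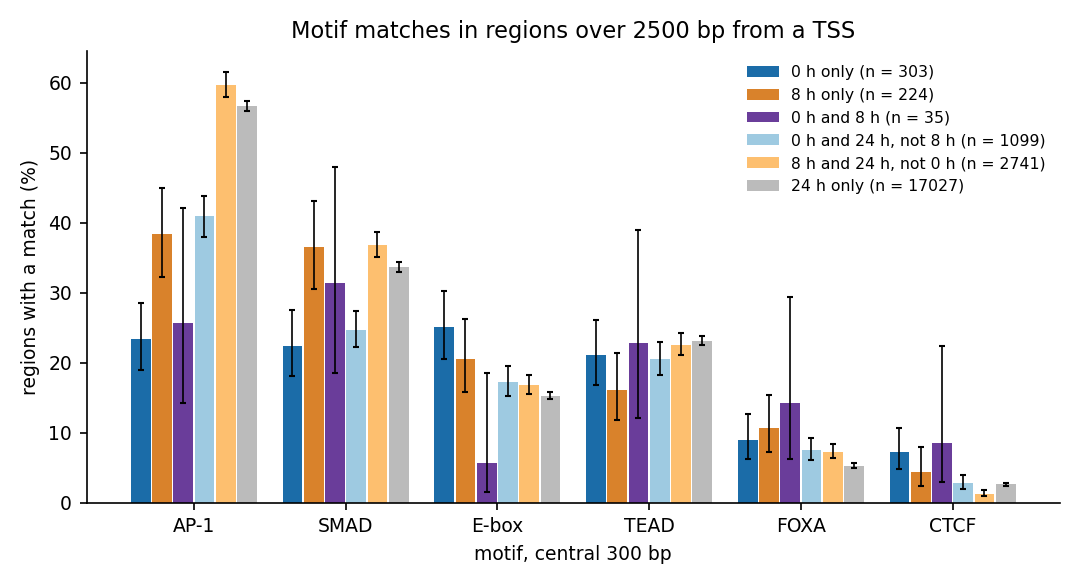
Share of regions more than 2500 bp from a TSS with a motif in their central 300 bp (y axis, percent) for 6 motifs (x axis) and 6 groups by times with a peak, with 95% Wilson intervals. AP-1 was in 23.4% of 0 h only and 38.4% of 8 h only regions against 40.9 to 59.7% of groups with a 24 h peak, and CTCF in 7.26 and 4.46% against 1.28 to 2.82%.

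Lamin B1, the nuclear lamina protein that in these cells was also profiled in open chromatin, was seldom found in these regions. A lamin B1 peak overlapped 3.79, 5.69 and 4.61% of 0 h only regions at 0, 8 and 24 h, and 2.49, 0.83 and 0% of 8 h only regions. In the group open at both times the same 4 of 44 regions (9.09%) had a lamin B1 peak at every time. At any time a peak overlapped 35 of the 654 (5.35%, 3.87 to 7.35%), against 38.9% of kept regions. Regions open at 24 h only were also low, at 8.12%. The shares differed by place. Within 500 bp of a TSS, 36.8% (14 of 38) of 0 h only regions had a lamin B1 peak at some time, against 67.0% of kept regions. The interval for these 38 (23.4 to 52.7%) included the 46.2% of regions open at 24 h only. Away from promoters the share was 2.64% (8 of 303) for 0 h only against 10.9% of regions with 0 h and 24 h peaks, and 2.23% (5 of 224) for 8 h only against 2.3% of regions with 8 h and 24 h peaks. For distal 8 h only regions the difference was within counting error (0.957 to 5.12%). Of distal regions open at 24 h only, 1.74% had a lamin B1 peak at some time.

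The strongest region open at both times lay in Mid1, an E3 ubiquitin ligase gene that in the mouse spans the edge of the pseudoautosomal region of the X chromosome. Mid1 held 5 of the regions, 4 of them open at both times, and 3 of these lay within 12.4 kb (chrX:166424131-166436500) and had a lamin B1 peak at every time. That region, at chrX:166434638-166436500, had scores of 390.87 at 0 h and 166.63 at 8 h, the highest of all 654. Mid1 RNA was at 10.3 and 11 FPKM at 0 h, 10.5 and 11.8 at 8 h, and 9.13 and 8.89 at 24 h in the 2 parental libraries of each time. The 24 h libraries were the lowest and did not overlap the others, and Mid1 fell by 0.22 on the log2 scale (limma adjusted p = 0.0197). Such clusters were rare: 601 of the regions had no other within 50 kb, 22 pairs did, and there were 3 groups of 3. Another cluster, of 3 regions open at 0 h only over 33.9 kb (chr1:87487462-87521363), lay at the interferon-linked genes Sp110 and Sp140.

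Other strong regions of the 0 h only group were chr4:155609551-155610684, 585 bp from the TSS of Klhl17 (score 171.14, with lamin B1 at every time), and chr15:102648537-102650031, between genes (158.9). That at chr10:127314361-127316027, in an exon of BC089597, scored 144.33 and lay 20 bp from a 24 h peak. An intronic region of Trim71, chr9:114456503-114457508, scored 134.83. Trim71, an RNA-binding ubiquitin ligase of early embryos, was at 0.592 and 0.674 FPKM at 0 h, 0.128 and 0.168 at 8 h, and 0.0865 and 0.0751 at 24 h, under the 1 FPKM needed for a test. The region at the TSS of Tsnax (chr8:127536464-127537333) scored 131.99, while the gene was listed at 0 in every library. Of the 8 h only group, the strongest regions lay in an exon of Zeb1 (chr18:5772335-5773010, 105.6), in an intron of the semaphorin receptor gene Plxna2 (chr1:196503852-196504478, 83.07), and between genes at chr1:145395743-145396117 and chr5:82526625-82526897 (82.94 each). The region at the TSS of Gm11724, inside Tmc8 (chr11:117651622-117652237), scored 81.63. After that in Mid1, the group open at both times was led by a region between genes near Ypel5 (chr17:73144576-73145577, 196.17 and 73.43), by the TSS of Itga5 (chr15:103195752-103197846, 128.75 and 52.55), and by an exon of Plat (chr8:23892477-23893327, 122.9 and 111.71).

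RNA-seq shows what the genes at these regions did, independently of the peak lists. The 48 regions at a TSS belonged to 53 annotated genes, 41 of them protein coding, and neighbours such as Fancd2 and Tmem111 shared a region. None of the 53 had a 24 h peak within 500 bp of its TSS. Of the 43 in the parental table, 27 nevertheless had a mean of at least 1 FPKM at 24 h. A total of 28 passed the filter for testing (at least 1 FPKM in at least 2 libraries), and the other 25 were absent from the table or under it. Changes are differences of log2(FPKM + 1), a scale that understates the change of low genes, and in bulk RNA fewer cells of a type and less RNA per cell cannot be told apart. Genes that overlap on opposite strands are uncertain, since the sources used here do not say whether FPKM were counted by strand.

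At 24 h in parental cells 16 of the 28 fell and 7 rose (limma, adjusted p under 0.05). These were 57.1 and 25% of those tested, while 37.1 and 33.4% of all 11309 genes tested fell and rose, 70.5% in all. A fall of at least 2-fold was called in 8 (28.6%) against 6.51% of all genes, and a rise of that size in 2 (7.14%) against 5.28%. At 8 h, 15 fell and 4 rose, against 32.1 and 22.4% of all genes and 54.5% in either direction. The median change was -0.28 at 8 h and -0.33 at 24 h, against -0.046 and -0.019 over all genes. In control shRNA cells 19 fell and 4 rose at 8 h, against 44.9 and 19.4% of all 11450 genes (64.3% in all), and 17 fell and 5 rose at 24 h, against 45.1 and 25.5% (70.7%). The median of all genes there lay at -0.14 and -0.13, and after quantile normalization, which moved it to -0.025 and -0.0035, 17 fell and 5 rose at 8 h, and 15 fell and 7 rose at 24 h. The same step moved the share of rises among all called genes from 30.2 to 46.0% at 8 h, and from 36.1% to near parity at 24 h (3900 rose and 3901 fell). By group, 13 of 23 tested genes at 0 h only regions fell and 6 rose at 24 h, 2 of 3 at regions open at both times fell and 1 rose, and 1 of 2 at 8 h only regions fell.

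Of the 16 that fell, 8 are named by the size of their change. Smim6 (annotated as 1110017F19Rik, 0 h only), which encodes a small membrane protein, was at 25.6 and 21.9 FPKM at 0 h, 4.7 and 7.0 at 8 h, and 0.101 and 0.188 at 24 h. It fell at each time without overlap, by 4.43 on the log2 scale at 24 h (SE 0.156, adjusted p = 1.14e-06). Muc1 (0 h only, chr3:89031730-89032735), the mucin of the apical epithelial surface, was at 23.4 and 22.1 FPKM at 0 h, 7.23 and 10.8 at 8 h, and 2.3 and 2.13 at 24 h. All 3 times were apart, with a fall of 2.88 at 24 h (SE 0.151, adjusted p = 4.95e-06) and of 3.41 in control shRNA cells. Anks4b (both times, chr7:127317118-127317812), a scaffold of microvilli, was at 40.1 and 42.5, then 31.8 and 35.9, then 6.52 and 7.4 FPKM. Most of its fall came after 8 h, reaching 2.41 in parental cells (SE 0.0769, adjusted p = 8.93e-07) and 4.23 in control shRNA cells. Ifi27l2b (0 h only), of an interferon-induced family, was at 10.3 and 10.7, then 4.9 and 5.8, then 1.05 and 0.978 FPKM. It fell by 2.52 (SE 0.0789, adjusted p = 8.45e-07), and by 1.17 in control shRNA cells. Tnfsf13 (8 h only, chr11:69498837-69499479), the TNF family ligand APRIL, was at 15.7 and 15.0, then 5.28 and 7.23, then 3.13 and 3.9 FPKM. It had fallen by 1.19 at 8 h, the time of its peak, and fell by 1.86 at 24 h (SE 0.134, adjusted p = 2.03e-05).

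Prim1 (both times, chr10:127451790-127452581), the catalytic subunit of DNA primase, was at 49.2 and 48.9 FPKM at 0 h, 24.9 and 25.1 at 8 h, and 15.4 and 14.6 at 24 h. The 2 libraries of each time nearly coincided, and the fall was 1.65 (SE 0.0423, adjusted p = 5.22e-07). Fancd2 (0 h only), which acts in repair of DNA crosslinks, was at 8.66 and 8.62, then 4.32 and 4.65, then 2.58 and 2.48 FPKM. It fell by 1.45 (SE 0.0587, adjusted p = 1.9e-06), while Tmem111, at the same region (chr6:113481089-113481676), was at 57.9 and 57.6 FPKM at 0 h and 61.7 and 61.2 at 24 h (adjusted p = 0.0533). Apitd1 (0 h only), a centromere and Fanconi pathway protein, was at 14.5 and 12.1, then 7.52 and 8.85, then 5.68 and 6.15 FPKM. It fell by 1.04 (SE 0.101, adjusted p = 8.52e-05).

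Some genes rose although no 24 h peak was listed at their start. Itga5 (both times), the fibronectin receptor subunit α5, was at 16.6 and 16.7 FPKM at 0 h, 79.1 and 61.7 at 8 h, and 108 and 101 at 24 h. Its 3 times did not overlap, and it rose by 2.58 at 24 h (SE 0.103, adjusted p = 1.86e-06) and by 3.48 in control shRNA cells. A 24 h peak lay 2288 bp from its region, and lamin B1 peaks lay at its start at every time. 6030419C18Rik (0 h only) was at 3.94 and 4.39, then 4.6 and 4.84, then 9.64 and 9.25 FPKM, with a rise of 1.02 (SE 0.0644, adjusted p = 1.12e-05). Kdm1a (0 h only), a histone lysine demethylase, was at 26.2 in both 0 h libraries, 41.7 and 35.3 at 8 h, and 41.6 and 41.0 at 24 h. It rose by 0.64 (SE 0.0725, adjusted p = 0.000194). Lamb3 (0 h only at its start, with an 8 h only region inside the gene), a β chain of an epithelial laminin, was at 105 and 108, then 227 and 217, then 140 and 140 FPKM. It was highest at 8 h (1.05) and rose by 0.39 at 24 h (SE 0.0384, adjusted p = 9.82e-05). Mafk, a small MAF factor, rose by 0.46 from 10.3 and 10.8 to 14.9 and 14.8 FPKM (adjusted p = 0.00292). Masp1, a complement protease, rose by 0.63 from 3.9 and 3.98 to 6.58 and 6.73 FPKM in parental cells (adjusted p = 6.03e-05), while in control shRNA cells the difference was -0.01 (adjusted p = 0.954). Of the 28, 5 did not pass at 24 h, among them Cog1 at 11.9 and 11.5 FPKM at 0 h and 11.5 and 11 at 24 h (adjusted p = 0.369).

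**Figure D4:**
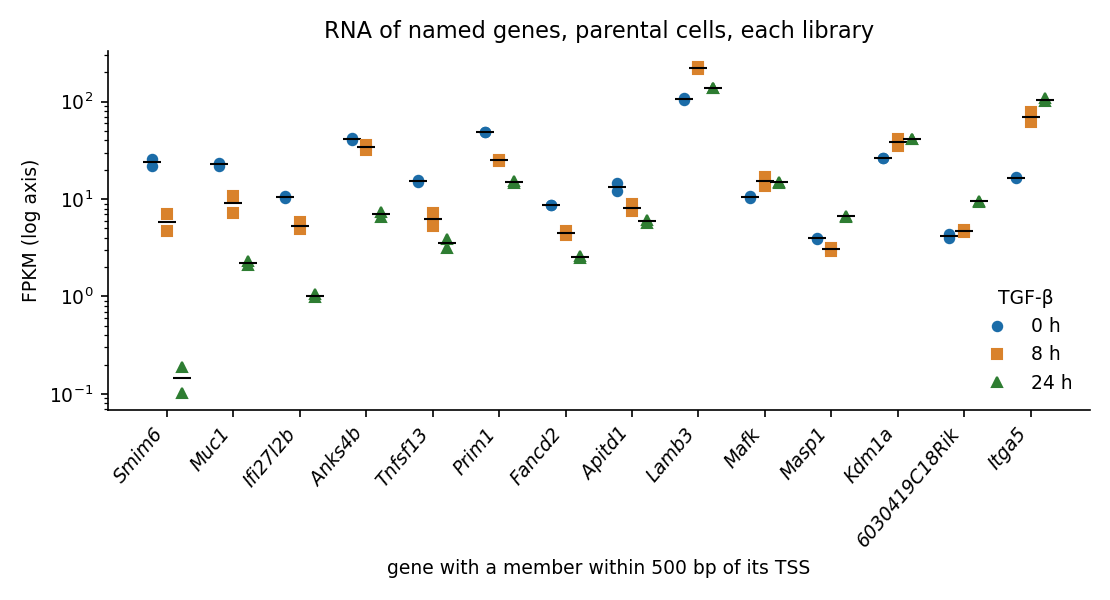
RNA of 14 named genes with a region within 500 bp of the TSS in parental cells (y axis, FPKM on a log axis), with a point for each of 2 libraries at 0, 8 and 24 h and a bar for their mean. Smim6 drops from 25.6 and 21.9 to 0.101 and 0.188, and Itga5 climbs from 16.6 and 16.7 to 108 and 101.

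Genes of the transition itself were looked up in lists. Of 190 genes in 7 lists of epithelial, mesenchymal, TGF-β, growth factor, AP-1, TP63-Notch-Wnt-Hippo and lamina genes, 6 held a region in the gene or up to 2500 bp before its TSS, while 1.47% of protein-coding genes (328 of 22380) did. These shares were not tested against each other, and the lists were not matched to that background for gene length or expression. Of the 6, all but Itga5 held an 8 h only region. Cdh1, the adherens junction protein E-cadherin, had an 8 h peak of score 54.82 in an intron (chr8:109135815-109136207). Its RNA was at 113 and 119 FPKM at 0 h, 86.3 and 92.9 at 8 h, and 39.4 and 41.1 at 24 h. The 3 times did not overlap, and Cdh1 fell by 1.5 (SE 0.0501, adjusted p = 9.92e-07) and by 2.02 in control shRNA cells. Zeb1, a repressor of Cdh1, was at 5.24 and 5.79, then 11.5 and 11.3, then 20.2 and 19.8 FPKM. It rose by 1.69 (SE 0.0556, adjusted p = 9.86e-07), so an 8 h only region lay inside both a falling junction gene and its rising repressor. Ltbp1, which holds latent TGF-β in the matrix, was at 16.8 and 18.9, then 39.5 and 35.9, then 56.7 and 53.9 FPKM and rose by 1.58 (SE 0.0694, adjusted p = 2.57e-06). Lgr4, an R-spondin receptor of the Wnt pathway, was at 17.3 and 18.2, then 10.6 and 11.6, then 6.42 and 6.67 FPKM. It fell by 1.32 (SE 0.0583, adjusted p = 2.64e-06). Tead1, a partner of YAP, rose by 0.35 from 9.18 and 10.2 to 12.9 and 12.4 FPKM (adjusted p = 0.00195). Over the lists as a whole, beside the 33.4% of all genes that rose and the 37.1% that fell at 24 h, 16 of 25 tested epithelial genes fell and 6 rose, 29 of 34 mesenchymal and matrix genes rose and 3 fell, and 19 of 27 TGF-β genes rose and 4 fell. Of 22 TP63, Notch, Wnt and Hippo genes 15 rose and 6 fell, and of 13 lamina and architecture genes 11 fell. Of 23 growth factor and MAPK genes 10 rose and 11 fell, and of 14 AP-1 and immediate early genes 7 rose and 4 fell.

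Taking every gene with a region inside it or up to 2500 bp before its TSS gave 390 genes, of which 205 were tested in parental cells, and the groups had different shares of rises and falls. At 24 h, 59 of 126 genes of 0 h only regions fell (46.8%, against 37.1% of all genes) and 40 rose (31.7%, close to the 33.4% of all genes). Among genes of 8 h only regions 21 of 68 fell (30.9%) and 37 rose (54.4%), and of 16 genes of regions open at both times 9 fell and 6 rose. The medians were -0.14, 0.23 and -0.35, beside -0.019 for all genes. At 8 h, 47.6% of the 0 h only genes fell and 19.0% rose, and 23.5% of the 8 h only genes fell and 42.6% rose, against 32.1 and 22.4% of all genes. In control shRNA cells 40.6% of the 8 h only genes rose at 8 h and 42.0% at 24 h, against 19.4 and 25.5% of all genes, while 58.3 and 52.0% of the 0 h only genes fell, against 44.9 and 45.1%. After quantile normalization 47.1 and 55.9% of the 8 h only genes rose at 8 and 24 h in parental cells, against 26.6 and 36.1% of all genes, and 46.4 and 53.6% in control shRNA cells, against 26.9 and 34.1%. Falls of the 0 h only genes were then 42.1 and 46.8% in parental cells, against 26.9 and 34.4% of all genes, and 47.2 and 41.7% in control shRNA cells, against 31.7 and 34.1%. The difference between the groups was not tested, and genes sharing a time are not replicates of it. Genes of regions with 8 h and 24 h peaks rose in 42.5% and fell in 33.7% at 24 h in parental cells, a share of rises between that of the 8 h only genes and the background.

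Further genes with a region, chosen after their values were seen, are given next. Iqgap2 (0 h only), a scaffold of the actin cytoskeleton, was at 71.8 and 76.1 FPKM at 0 h, 27.6 and 35.3 at 8 h, and 5.53 and 5.59 at 24 h. It fell by 3.51, whereas Ccbe1 (0 h only), a secreted protein of lymphatic growth, rose by 2.41 from 9.34 and 9.21 through 33.8 and 30.5 to 55 and 52.0 FPKM. Neurl1b (0 h only), a ubiquitin ligase of Notch ligands, fell by 2.58, from 17.0 and 19.2 to 2.18 and 2.21 FPKM, with 3.14 and 5.64 at 8 h. Slc24a3 (8 h only), a sodium, calcium and potassium exchanger, was at 0.836 and 0.789, then 1.99 and 1.78, then 10.1 and 9.91 FPKM. It rose by 2.61, with most of the rise after 8 h. Hnf4a (8 h only), an epithelial nuclear receptor, was at 79.9 and 83.9, then 92.9 and 87.9, then 24.6 and 26.8 FPKM in parental cells. Its 8 h libraries were above those at 0 h (0.14, adjusted p = 0.0646), and it fell by 1.63 at 24 h. In control shRNA cells it was at 80.1 and 67.7, then 46.8 and 46.6, then 5.65 and 5.79 FPKM, lower at each step. Plat (both times), tissue plasminogen activator, was at 26.3 and 27.0, then 26.0 and 27.2, then 38.1 and 36.2 FPKM, and rose by 0.47 at 24 h. All of these 24 h changes passed the test in both parental and control shRNA cells, as did 70.5 and 70.7% of all genes tested. Since the genes were chosen with their values known, this is a description.

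**Figure D5:**
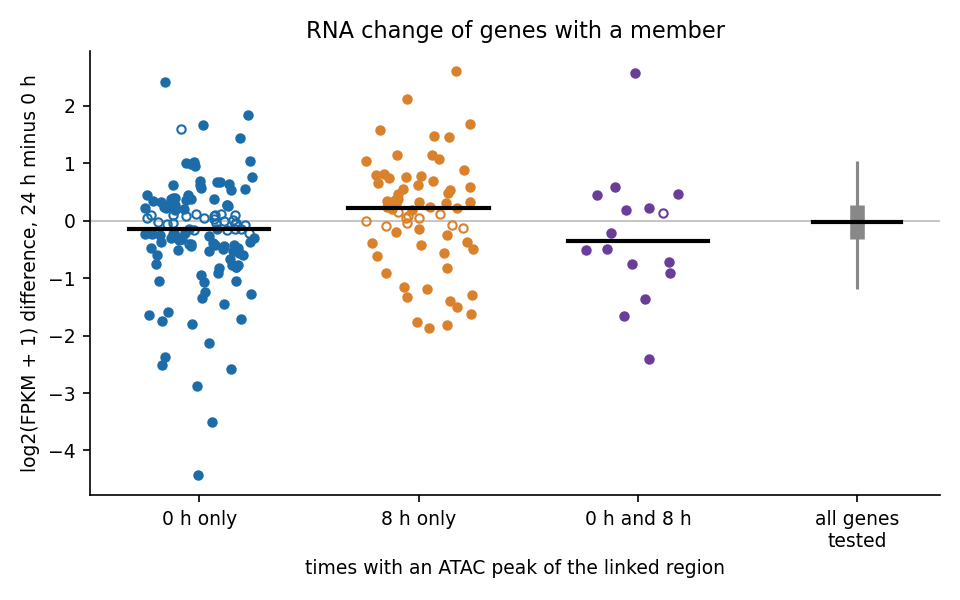
Difference of log2(FPKM + 1) between 24 h and 0 h in parental cells (y axis) for tested genes with a region in the gene or up to 2500 bp before it, by group of the region (x axis), filled where adjusted p was under 0.05, with the median as a bar. The grey column gives the 5th, 25th, 75th and 95th percentiles of all 11309 genes, and the medians of the groups are -0.14, 0.23 and -0.35.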

How the data were processed

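ATAC-seq and lamin B1 ChIP-seq peak lists and RNA-seq tables of NMuMG cells were used as deposited. The authors called peaks with MACS and deposited a list per library, with a score for each peak and mm9 coordinates. The deposited FPKM per gene came from 2 tables (23295 and 24247 genes). The submitters' processing notes name Bowtie, TopHat and Cufflinks, with versions and settings not given in the sources used here. FPKM columns without a header were taken in the order that the sample descriptions name them, and those of parental cells carry no replicate number. The files hold no read counts, so depth is unknown.

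Peaks were merged where they touched or overlapped (Python 3.11.15, pandas 2.3.3). Places were taken from the NCBIM37 annotation, with 1 start per gene, and sequences from that genome (pysam 0.24.0). Motifs were searched on both strands as exact letters, over the whole region and in its central 300 bp. Genes were linked by a region within 500 bp of the TSS, or inside the gene or up to 2500 bp before it. CpG-rich means an observed to expected CpG ratio over 0.6 in the central 300 bp. It also needs a G and C content over 55% in the central 200 bp.

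RNA was tested with limma 3.58.1 (R 4.3.3) on log2(FPKM + 1) for genes that reached 1 FPKM in 2 or more libraries, with all libraries of a table in 1 fit, Benjamini-Hochberg adjustment over all genes tested and a threshold of 0.05, after the code was tested on simulated data. The 2 tables were tested apart. Named regions are the 5 of highest score per group. Named genes at a TSS are up to 5 per group and direction with the largest 24 h change among those called, without overlap of libraries and with a higher mean of at least 5 FPKM. Genes of the lists were named when they held a region. The regions and gene lists were chosen with earlier results of these data known. Sequences are those of the 2 highest-scoring regions per group whose central 300 bp touch no annotated exon, plus 2 chosen later, at a CTCF match and in Cdh1. That upstream of Klhl17 is not printed. Alternatives were other merging rules, stricter or equal lists, windows, overlaps, pseudocounts, filters, normalization, groups in the fit, left-out libraries and a replicate block.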

Additional observations from a re-analysis of the deposited data

Results flagged for a closer look

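Hnf4a, which holds an 8 h only region, moved in opposite directions at 8 h in the 2 kinds of cells. Both parental 8 h libraries were above both 0 h libraries (log2 difference 0.14), and both control shRNA 8 h libraries were below both 0 h libraries (log2 difference -0.65). The difference between parental and control shRNA cells was not tested, since the 2 tables were made apart. The parental difference did not pass the test (limma adjusted p = 0.0646), except without 1 of the 8 h libraries (log2 difference 0.18, adjusted p = 0.0484), and the control shRNA difference did (adjusted p = 0.000225).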

How the results depend on the processing

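The number of regions without a 24 h peak depended on the peak lists. Lists of equal length gave 5163 regions (2222 at 0 h only, 1874 at 8 h only and 1067 at both times). A score of at least 100 in every list gave 65 (56, 6 and 3), and that score asked only of the 0 h and 8 h peaks gave 27 (23, 2 and 2). Requiring an overlap, or merging peaks up to 200 or 1000 bp apart, gave 654, 641 and 605. The share at a TSS, 7.34% of all 654, was 14.1% with a window of 2500 bp, 14.8% among the 27 regions of higher score and 8.87% with the starts of all transcripts. The shares with a lamin B1 peak at 0, 8 and 24 h (3.67, 4.13 and 3.21%) were 3.21, 3.82 and 2.91% with at least 50% of the region covered and 4.28, 4.89 and 3.67% within 1000 bp. Mean G and C content was 47.6%, and 48.4% in the central 200 bp. In the central 300 bp, 0 h only and 8 h only regions exceeded kept regions in CTCF, E-box, FOXA, TEAD and GRHL shares. Over the whole region none did except CTCF at 0 h only. Away from promoters the central TEAD share of 8 h only regions was lower, 16.1% against 22.6% of regions with 8 h and 24 h peaks.

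The calls among genes at a TSS numbered 19 and 23 at 8 and 24 h in parental cells, and 23 and 22 in control shRNA cells. Leaving out 1 library at a time gave 17 to 20, 21 to 22, 22 to 24 and 21 to 22. Quantile normalization gave 20, 25, 22 and 22, no filter 19, 28, 26 and 24 (of 39 genes), the compared groups alone 20, 23, 20 and 21, and a constant of 0.1 gave 19, 23, 23 and 22. Linking by the whole gene gave 137, 167, 159 and 158. In control shRNA cells quantile normalization moved the share of rises among called genes of the whole-gene rule at 24 h from 39.9 to 50.9%. With the replicate number as a block the control shRNA counts were again 23 and 22. Over 15 pairs of shRNA groups, same-numbered libraries had correlated deviations of -0.135 to 0.368, with 2 above 0.1, so the numbers were not taken to pair the samples. No paired analysis was possible for parental cells because their columns carry no replicate number.

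Of 37 named genes, all 37 held their call at 24 h under every setting in both kinds of cells, and 32 did at 8 h in each. Genes at a TSS were named for large called changes at 24 h in parental cells, which favours a stable call there. A held call can also be one that never passed, as for Masp1 at 24 h in control shRNA cells. No change of sign was seen in a called value. The exceptions at 8 h were Anks4b, 6030419C18Rik, Hnf4a, Msrb3 and Tead1 in parental cells, and Apitd1, Msrb3, Pard3, Tead1 and Vti1a in control shRNA cells. The starts of all transcripts, the restriction to distal regions, the score classes and quantile normalization by group were chosen after the data were seen. Each ATAC and ChIP time is 1 library, so no replicate error exists for a region. Peak lists stop at a score of 50, and a region under it at 24 h cannot be told from closed chromatin.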
